A study of Mus musculus with 8 samples.

Results

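Casz1, the mouse gene for the zinc finger transcription factor castor (ENSMUSG00000028977), was followed through the 8 RNA libraries of aged mouse muscle stem cells (MuSCs) cultured with nicotinamide and pyridoxine (NAM/PN) or with vehicle. It is 1 of 55487 genes in the deposited count table, and 1 of 12060 that passed a filter on low counts and were tested. The gene was chosen by its difference between the conditions in these same libraries, so its own levels and that difference are described here without a test.

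MuSCs were sorted by FACS from old wild-type C57BL/6JRj mice, all male according to the methods of the study, as cells positive for CD34 and integrin α7 and negative for CD31, CD11b, CD45 and Sca1. Cells of 8 mice were combined into 4 pools of 2 mice, and each pool was grown for 72 hours in growth medium with the NAM/PN combination at a final 1 mM or with 1% DMSO as vehicle, which gave 4 libraries per condition. The 1 mM is given for the combination, without separate values for nicotinamide (a form of vitamin B3) and pyridoxine (a form of vitamin B6), and neither compound was sequenced alone. Libraries of the same pool number came from the same mice, no young mice and no freshly isolated cells entered the comparison, and p-values measure the spread between these pools.

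CASZ1 takes its name from castor, a factor of the fly nervous system that marks late-born neurons. In vertebrates it is known for roles in retinal progenitors, in heart and blood vessel development, where it controls EGFL7 and, through it, RhoA, and in skeletal muscle differentiation, where it acts with the myogenic factors MYOD and MYOG. The protein binds the chromatin remodelling complex NuRD, and in the retina its work has been tied to Polycomb repressors. Long and short forms of the protein are made from the same gene and differ in the number of their zinc fingers.

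On GRCm38, Casz1 lies on the forward strand of chromosome 4 at chr4:148804429-148954889. The GENCODE annotation gives the shorter of the full coding transcripts 16 exons and 1166 residues, and the longer 21 exons and 1762 residues. Both start at the same base, and their 3′ ends are 9760 bases apart. The libraries read the 3′ ends of transcripts, but the deposited table holds 1 count per gene, so the 2 forms could not be separated.

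RefSeq gives Casz1 2 start sites on GRCm38.p6, and the sequence from 250 to 31 bases before each, 220 bases on the forward strand, is shown because these windows differ in base composition. Capitals mark CG dinucleotides. The first window, chr4:148804142-148804361, lies before all exons of the gene, and the second, chr4:148889097-148889316, lies within the span of both coding transcripts, outside their exons.

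Casz1 upstream window 1: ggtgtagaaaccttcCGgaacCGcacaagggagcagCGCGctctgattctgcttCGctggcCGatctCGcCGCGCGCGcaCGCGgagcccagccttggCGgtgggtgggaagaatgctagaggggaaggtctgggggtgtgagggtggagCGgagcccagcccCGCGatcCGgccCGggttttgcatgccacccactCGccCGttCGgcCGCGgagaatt

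Casz1 upstream window 2: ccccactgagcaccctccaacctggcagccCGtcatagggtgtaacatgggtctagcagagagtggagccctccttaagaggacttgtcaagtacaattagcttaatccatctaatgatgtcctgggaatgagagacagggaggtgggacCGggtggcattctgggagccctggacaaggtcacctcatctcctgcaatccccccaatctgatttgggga

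The first window held 24 CG dinucleotides at 67.7% GC, and 7.86% of all 32851 RefSeq mouse windows of the same length had as many. In the second window there were 2 at 54.5% GC, a number that 78.2% of windows reached. Neither window contained an E-box (CANNTG, which reads the same on both strands), the short motif that myogenic factors bind, whereas 62.1% of all windows held at least 1. A match or its absence describes these letters alone, and which start the cells used was not measured.

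Casz1 was present in every vehicle library and was low or absent in every NAM/PN library. With vehicle, 128, 346, 107 and 312 reads were counted on the gene in pools 1 to 4. With NAM/PN, the same pools gave 2, 19, 0 and 17 reads. The lowest vehicle count was above the highest NAM/PN count, so the conditions did not overlap, and Casz1 was lower with NAM/PN in 4 of 4 pools. Conditions that did not overlap, with NAM/PN lower, were found for 4.42% of the 12060 tested genes, and with NAM/PN higher for 2.79%.

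Library totals ranged from 6472484 to 10163101 counts, so counts were scaled to CPM, the counts in each 1000000 of the normalized library size. The vehicle level of Casz1 was 26.3 ± 14.5 CPM (SD, n = 4), and the NAM/PN level was 1.12 ± 1.23 CPM (SD, n = 4). In the vehicle libraries the levels were 15.2, 42.9, 13.2 and 34.0 CPM in pools 1 to 4, and in the NAM/PN libraries 0.246, 2.65, 0 and 1.59 CPM. A floor of 3 counts corresponded to 0.280 to 0.457 CPM. NAM/PN pools 1 and 3 fell under their floors, so Casz1 was at the limit of detection there, while pools 2 and 4 were above it. In NAM/PN pool 3, the 95% exact interval of the 0 counts reached up to 0.562 CPM.

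**Figure D1:**
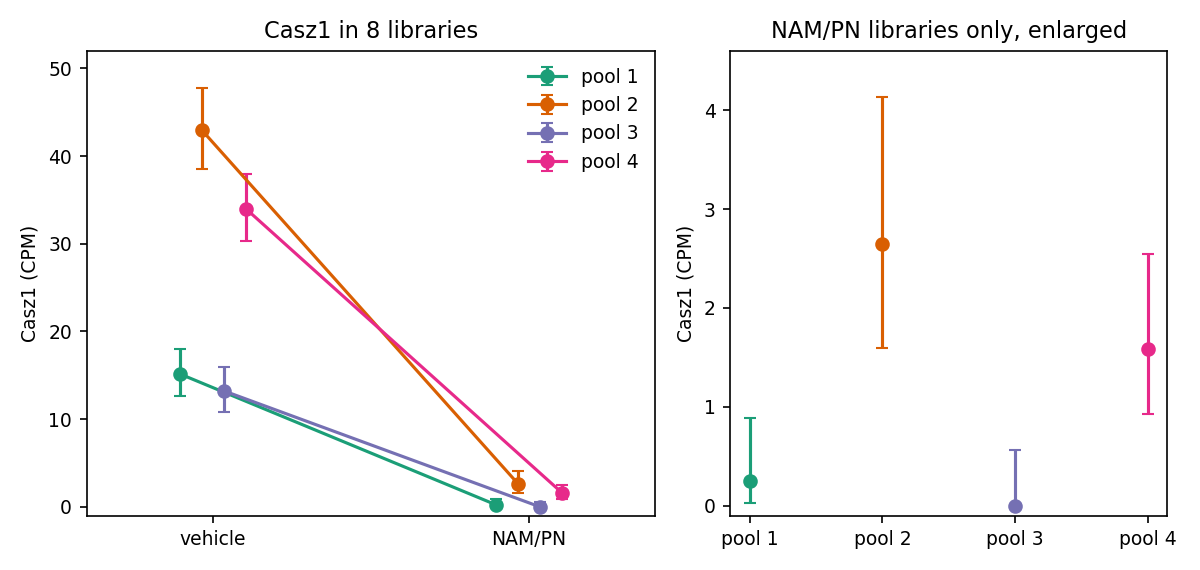
Casz1 in the 8 libraries. The vertical axis is CPM, and the right panel enlarges the NAM/PN libraries. Each point is 1 library, lines join the vehicle and NAM/PN libraries of the same pool, and bars are 95% exact Poisson intervals, which cover counting error only. The 4 vehicle libraries sit between 13.2 and 42.9 CPM and the 4 NAM/PN libraries between 0 and 2.65 CPM, and in both conditions pools 2 and 4 are above pools 1 and 3.

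Within pools, Casz1 was 16.2-fold lower with NAM/PN in pool 2 (95% interval from the counts, 10.2 to 27.3) and 21.4-fold lower in pool 4 (13.1 to 37.2). In pool 1 the ratio was 61.6, but it rests on 2 counts with NAM/PN and its interval runs from 16.7 to 514. In pool 3, with 0 counts with NAM/PN, the ratio has no upper limit, and its lower 95% bound was 23.1 (28.9 for the vehicle level over the floor of 3 counts). The intervals of all 4 pools lay above 10, but they cover counting error only. They describe a gene chosen by this contrast and are not a test of its fall. Whether the size of the fall differed between pools was not tested.

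The fitted log2 fold change of Casz1 was -4.52 (SE 0.81), and -5.05 with the pool as a block. The median over all tested genes was 0.00 on the same scale. Of the 12060 genes, 120 (0.995%) were called lower with NAM/PN and 34 (0.282%) higher by the edgeR quasi-likelihood test, adjusted after Benjamini-Hochberg, at 0.05. Among 958 genes with a mean log2 CPM of 3 or more that were lower in all 4 pools, taken without regard to any test, Casz1 ranked 2 by the size of its fitted difference, after Cdh11, a cadherin, at -4.65. Pgm5, at -4.30, and Htra3, a secreted protease, at -3.72, followed it. These ranks rest on the contrast that chose the gene and are given as a description.

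Pool 3 had the lowest Casz1 level in both conditions, followed by pool 1, pool 4 and pool 2. In vehicle libraries, the 95% intervals of pools 1 and 3, which reached from 10.8 to 18.0 CPM, lay below those of pools 2 and 4, which reached from 30.3 to 47.7 CPM. With NAM/PN, the interval of pool 1 (0.0298 to 0.889 CPM) lay below that of pool 4 (0.925 to 2.54 CPM) by a small margin. The intervals of pools 1 and 3 overlapped in both conditions, as did those of pools 2 and 4 with NAM/PN. All these intervals cover counting error only. Over 9212 genes with a mean log2 CPM of 3 or more, pools 2 and 4 were above pools 1 and 3 in both conditions for 276 (3.00%) and below them in both for 216. Same-numbered libraries did not deviate together across all genes, with correlations of their deviations from the condition means between -0.0332 and 0.0313.

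2 annotated antisense genes lie on the reverse strand within Casz1. Gm15969, at chr4:148913511-148914324, had 0 counts in all libraries. Gm13205, at chr4:148947492-148948914, beyond the end of the shorter coding transcript and inside the longer, had 3, 14, 0 and 2 counts with vehicle and 38, 0, 0 and 33 with NAM/PN in pools 1 to 4. In NAM/PN pools 1 and 4, Gm13205 thus had more counts than Casz1 itself. Whether reads were counted by strand is not given in the sources used here, so reads of Casz1 and of its antisense partners cannot be told apart with certainty.

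The identity of the cells was examined with markers. The 11 muscle stem cell markers include Pax7, Myf5, Myod1 and Des, with the largest shares from Myod1 and Des. Their sum was 3060 to 3479 CPM with vehicle and 2415 to 3041 with NAM/PN, lower and without overlap. Of the 10 tested, 0 were called, where 0.995% of all tested genes were called lower and 0.282% higher. Of 10 leukocyte markers, 9 had no counts in any library, and of 10 cardiomyocyte markers 8 had none, including Tbx5, Nkx2-5 and Myh6. The leukocyte sum was 0.979 to 7.58 CPM with vehicle and 3.50 to 7.14 with NAM/PN, and the cardiomyocyte sum was at most 0.544 and 0.139 CPM. The endothelial markers summed to 3.46 to 27.0 CPM with vehicle and 9.85 to 29.6 with NAM/PN, mostly from Egfl7, and Emcn, Flt1, Tie1, Cldn5 and Erg were at 0 in all 8 libraries. Mural cell markers summed to 291 to 619 CPM with vehicle and 109 to 156 with NAM/PN. The largest share came from the smooth muscle actin gene Acta2. Of 4 tested mural genes, 1 was called lower, against 0.995% of all tested genes, and Myh11 was at 0. Fibro-adipogenic markers summed to 283 to 350 CPM with vehicle and 86.5 to 1233 with NAM/PN. In NAM/PN pools 1 and 2, the collagen gene Col1a1 reached 486 and 1032 CPM. Of 4 tested fibro-adipogenic genes, 2 were called lower, against 0.995% of all tested genes, and Pdgfra, Lum and Dpt were at 0. Schwann and glial markers (11.4 to 50.6 CPM with vehicle, 24.6 to 52.2 CPM with NAM/PN) and tenocyte markers (239 to 335 and 202 to 274 CPM) overlapped between conditions. Within conditions, the correlation of the deviations of each sum with those of Casz1 over the 8 libraries was 0.791 for endothelial, 0.584 for mural, 0.518 for tenocyte, 0.415 for muscle stem cell and 0.339 for fibro-adipogenic markers, 0.361 for Schwann and glial and for cardiomyocyte markers, and -0.103 for leukocyte markers, given as a description. The part of these cell types in the level of Casz1 was not tested. In bulk RNA such as this, fewer cells that express Casz1 and less Casz1 RNA per cell cannot be told apart.

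To find which genes had the pattern most like that of Casz1, Pearson's r of log2 CPM was computed between Casz1 and 9211 other tested genes of sufficient level over the 8 libraries. The 12 highest values, from 0.966 to 0.994, belonged to Mustn1, Stk17b, Pgm5, Mest, Acsl4, Rragd, Myh3, Rhoq, Dusp16, Smyd1, Klhl41 and Tnnt2. Over all 9211 genes the median r was -0.01, with 5% of genes below -0.663 and 5% above 0.725, and 83 genes above 0.9. Since r over both conditions follows the difference between them, a gene that fell with NAM/PN starts with a high value, and these 12 were selected on it. All 12 were lower with NAM/PN in 4 of 4 pools, 6 were called lower, and in 11 the conditions did not overlap (0.995% and 4.42% over all tested genes), which is the direction the selection favours.

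**Figure D2:**
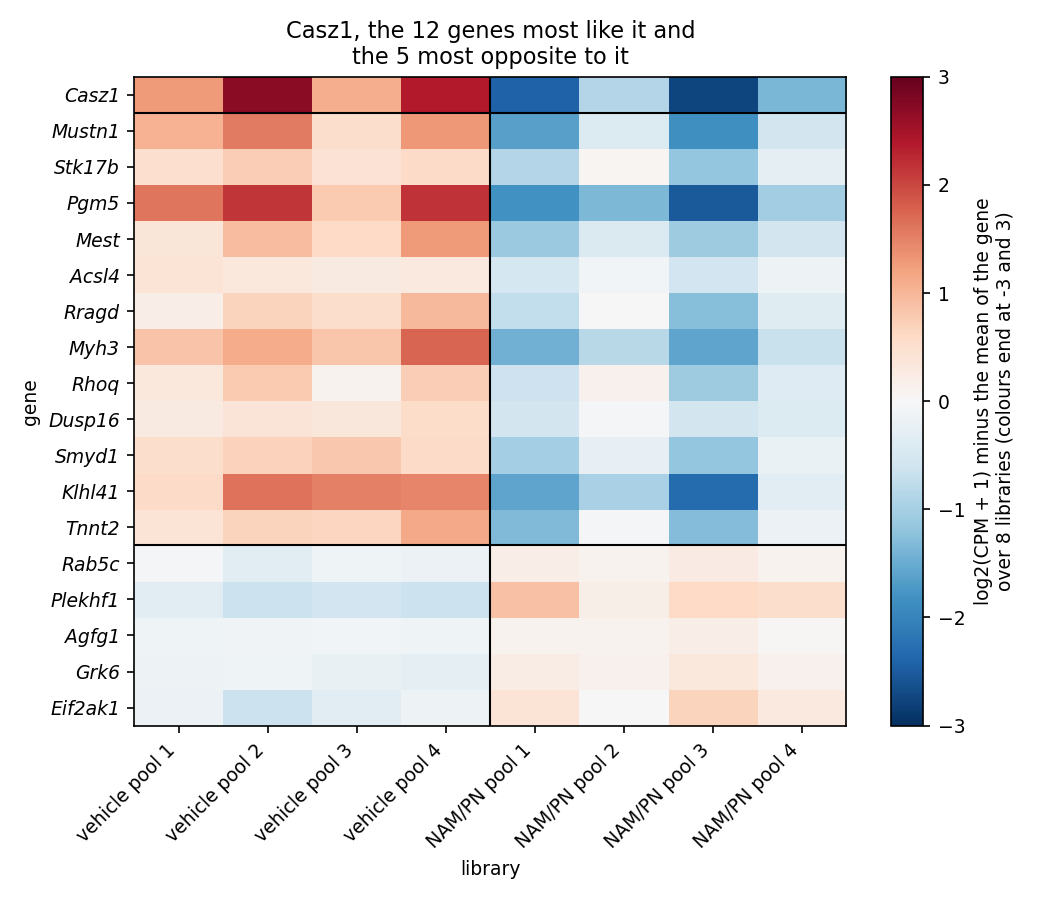
The genes most like and most opposite to Casz1 over the 8 libraries. Rows are genes and columns are libraries, vehicle left and NAM/PN right, and colour is log2(CPM + 1) minus the mean of the gene, with colours ending at -3 and 3. The 12 like genes, with Pearson's r from 0.966 to 0.994, are lower with NAM/PN in every pool, and the 5 opposite genes, with r from -0.952 to -0.940, are higher.

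Mustn1, a small nuclear protein of muscle and skeletal tissue, was the most alike, with r = 0.994. Its levels with vehicle were 13.3, 19.4, 8.89 and 16.1 CPM in pools 1 to 4, and with NAM/PN 1.23, 4.18, 0.914 and 3.74 CPM. Mustn1 ranked the 8 libraries exactly as Casz1 did, with pool 3 lowest and pool 2 highest in both conditions, and its fitted log2 fold change was -2.51. Stk17b, which encodes the kinase DRAK2, also ranked the 8 libraries exactly as Casz1 did, over a narrower range. Its levels were 73.1, 87.1, 70.2 and 77.3 CPM with vehicle and 27.5, 53.6, 22.7 and 42.4 with NAM/PN.

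Pgm5, a relative of phosphoglucomutase found at cell adhesion sites of muscle, was the gene of the 12 that fell about as far as Casz1. Its levels were 16.5, 24.4, 8.89 and 24.6 CPM with vehicle and 0.615, 1.25, 0 and 1.77 with NAM/PN, and like Casz1 it had no reads in NAM/PN pool 3. Mest, an imprinted gene of the mesoderm, went from 243 ± 67.8 to 79.9 ± 19.6 CPM (SD, n = 4 each). Rragd, a Rag GTPase that acts in amino acid sensing by mTORC1, went from 47.5 ± 10.7 to 21.1 ± 8.04 CPM. Of the remaining genes without a contractile role, the acyl-CoA synthetase gene Acsl4, the small GTPase gene Rhoq and the MAP kinase phosphatase gene Dusp16 had the narrowest differences of the 12, with log2 fold changes of -0.65, -0.94 and -0.82. In Rhoq the conditions overlapped, its lowest vehicle library being at 94.0 CPM and its highest NAM/PN library at 95.3 CPM.

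4 of the 12 belong to the making of the contractile apparatus. Myh3, the embryonic myosin heavy chain, went from 87.5 ± 28.8 to 17.4 ± 5.58 CPM (SD, n = 4 each), with its highest level in pool 4 in both conditions. Klhl41, a kelch protein of the sarcomere, had 22.3, 46.8, 43.0 and 42.0 CPM with vehicle and 4.19, 6.97, 2.13 and 11.3 with NAM/PN. In both genes every vehicle library was above every NAM/PN library. Tnnt2, the troponin T of heart and embryonic muscle, went from 202 ± 44.3 to 79.6 ± 37.0 CPM, and Smyd1, a muscle methyltransferase needed for myofibril assembly, from 98.6 ± 9.03 to 40.8 ± 14.1 CPM (SD, n = 4 each). Reads of Myh3 may be shared with near-identical myosin genes.

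To set the condition aside, r was also computed on deviations from each condition's mean. The 12 genes then had values between 0.817 and 0.974, with a median of 0.865, against a median of 0.02 over 9211 genes, of which 33 were above 0.9. Over these 9211 genes, 5% were below -0.652 and 5% above 0.678. Mustn1 (0.974), Stk17b (0.962) and Rhoq (0.952) stayed closest to Casz1. In 9 of the 12, pools 2 and 4 were above pools 1 and 3 in both conditions, as in Casz1, compared with 3.00% of the 9212 genes. Both values share the libraries that chose the genes and are a description of 8 points. The list itself depended on single libraries, since only 3 of the 12 genes remained among the highest 12 without NAM/PN pool 1 and 3 remained without NAM/PN pool 3, the libraries with 2 and 0 Casz1 counts. Stk17b remained in all 13 other settings tried and Mustn1 in 11.

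The upstream windows of these genes were searched for the E-box, since Casz1 itself had none. RefSeq gave 15 windows for the 12 genes, of which 12 (80.0%) held at least 1 E-box against 62.1% of all 32851 windows. The form CAGCTG, also the same on both strands and counted among the E-boxes, was in 6 of the 15 (40.0%) and in 11.4% of all windows. Windows with 2 or more E-boxes were no more frequent, at 26.7% against 27.4%, and counted by gene, 9 of the 12 genes had an E-box in a window, as did 17695 of all 27025. Klhl41 and Tnnt2 had the most, and their windows are shown for that reason, both on the forward strand of GRCm38.p6 and with E-boxes in capitals. They lie at chr2:69669870-69670089 and chr1:135836084-135836303, before the start and outside annotated exons.

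Klhl41 upstream window: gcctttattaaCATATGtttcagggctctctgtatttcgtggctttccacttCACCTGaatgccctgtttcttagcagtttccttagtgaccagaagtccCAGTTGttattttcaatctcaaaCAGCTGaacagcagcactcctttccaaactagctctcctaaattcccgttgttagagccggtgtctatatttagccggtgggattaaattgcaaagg

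Tnnt2 upstream window: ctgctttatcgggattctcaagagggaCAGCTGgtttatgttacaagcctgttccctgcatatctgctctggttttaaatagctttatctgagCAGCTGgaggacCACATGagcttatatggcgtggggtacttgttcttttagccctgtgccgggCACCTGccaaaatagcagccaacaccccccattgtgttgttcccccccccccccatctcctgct

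Each of these windows held 4 E-boxes, 1 of them CAGCTG for Klhl41 and 2 for Tnnt2. Mustn1, Rhoq and Smyd1, 3 of the 12 genes, had no E-box in the searched window, like Casz1. The windows of Mest and of Tnnt2 overlap or belong to the same gene and are not independent, and no binding was measured in these cells.

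The 5 genes with the lowest r to Casz1 were Rab5c (-0.952), Plekhf1 (-0.950), Agfg1 (-0.949), Grk6 (-0.947) and Eif2ak1 (-0.940). Rab5c and Plekhf1 encode proteins of endosomes, Grk6 a kinase of G protein-coupled receptors, and Eif2ak1 the heme-regulated kinase of eIF2α. Rab5c, an early endosome GTPase, went from 127 ± 10.6 to 161 ± 8.00 CPM, and Plekhf1 from 6.31 ± 0.788 to 14.7 ± 3.00 CPM (SD, n = 4 each). All 5 were higher with NAM/PN in 4 of 4 pools without overlap (2.79% of all tested genes did not overlap in this direction), which their selection by a low r favours, and 0 were called. Their deviations within condition had r between -0.788 and -0.673, weaker than those of the like genes.

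The myogenic transcription factors and cofactors, the partners of CASZ1 in muscle, were examined as a list of 25, of which 22 were tested. By the edgeR quasi-likelihood test, adjusted after Benjamini-Hochberg over all genes, 2 were called lower and 0 higher, and the median log2 fold change of the 22 was -0.18 against 0.00 over all tested genes, of which 0.995% were called lower and 0.282% higher. Myog, the factor that drives terminal differentiation, was called lower at adjusted p = 0.000232, with a log2 fold change of -2.22 (SE 0.29). Its levels were 680, 1042, 566 and 1428 CPM with vehicle and 108, 237, 173 and 277 with NAM/PN, so that pools 2 and 4 were the higher ones in both conditions, as for Casz1. Over alternatives, Myog was called in 19 of 19 settings, with an adjusted p of at most 0.0189.

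Mef2c, which works with myogenic factors on muscle promoters, was called lower at adjusted p = 0.0125 by the edgeR quasi-likelihood test, adjusted after Benjamini-Hochberg, with a log2 fold change of -2.11 (SE 0.43). Its vehicle levels were 23.0, 42.9, 63.0 and 31.0 CPM, highest in pool 3, where Casz1 was lowest. With NAM/PN they were 7.26, 13.5, 4.26 and 11.9 CPM. The call was lost in 6 of 19 settings, namely without vehicle pool 2 or 3, without NAM/PN pool 1, and without pool 1, 2 or 3 altogether, with adjusted p between 4.76e-05 and 0.131 over all alternatives.

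Myod1, the factor of myogenic commitment, was not called. Its levels were 1380, 1388, 1136 and 1561 CPM with vehicle and 1038, 1143, 1308 and 1314 with NAM/PN, and the conditions overlapped. The log2 fold change was -0.19 (SE 0.15) at an adjusted p of 0.824 by the edgeR quasi-likelihood test, adjusted after Benjamini-Hochberg. The correlation of deviations with those of Casz1 was 0.717 for Myog, 0.643 for Mef2c and 0.210 for Myod1, over 8 libraries and as a description. Over 9211 genes, 5% of such correlations lay below -0.652 and 5% above 0.678, so those of Mef2c and Myod1 were within this range. 5 of the 22 factors had an unadjusted p under 0.05.

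The genes of fusion and contraction that these factors switch on formed a list of 39, of which 36 were tested. Of these, 19 were called lower and 0 higher, compared with 0.995% of all genes called lower. All 36 had a fitted log2 fold change below 0, with a median of -2.03, and 30 had an unadjusted p under 0.05. Myh3, Smyd1 and Tnnt2 stand both on this list and among the 12 genes above. Fewer were called without pool 2 (9) or without pool 3 (12).

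The called members with the largest falls were Myh1, Myl4, Tnnc2, Acta1, Mybpc1 and Myl1. Myh1, the fast myosin heavy chain, went from 31.4 ± 4.70 to 3.57 ± 2.89 CPM, with a log2 fold change of -3.12 (SE 0.70), and its reads may be shared with near-identical myosin genes. Tnnc2, the fast troponin C, went from 55.9 ± 14.1 to 6.73 ± 6.27 CPM, with a log2 fold change of -3.03 (SE 0.48). Acta1, the skeletal muscle actin, had 286, 463, 353 and 475 CPM with vehicle and 11.4, 98.1, 48.0 and 84.6 with NAM/PN. Myl4, the embryonic and atrial light chain, had a log2 fold change of -3.07, Mybpc1, a myosin binding protein, of -2.66 and Myl1, a fast light chain, of -2.60.

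The adjusted p-values of these 6 genes by the edgeR quasi-likelihood test, adjusted after Benjamini-Hochberg, were between 0.000303 for Myl1 and 0.0257 for Myh1. Over 19 alternatives, Myl1 was called in all 19, Tnnc2 and Acta1 in 18, Myl4 in 13, and Myh1 and Mybpc1 in 10. The fitted falls of all 6 were smaller than that of Casz1, whose difference was not tested against them. Their correlation with Casz1 within conditions ranged from 0.167 for Myl1 and 0.177 for Mybpc1 to 0.638 for Myl4, below the values of the 12 most alike genes. All 6 were below 0.678, which 5% of 9211 genes exceeded. Pools 2 and 4 were above pools 1 and 3 in both conditions for 8 of the 36 tested genes of the list (22.2%). Over the 9212 genes the share was 3.00%.

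**Figure D3:**
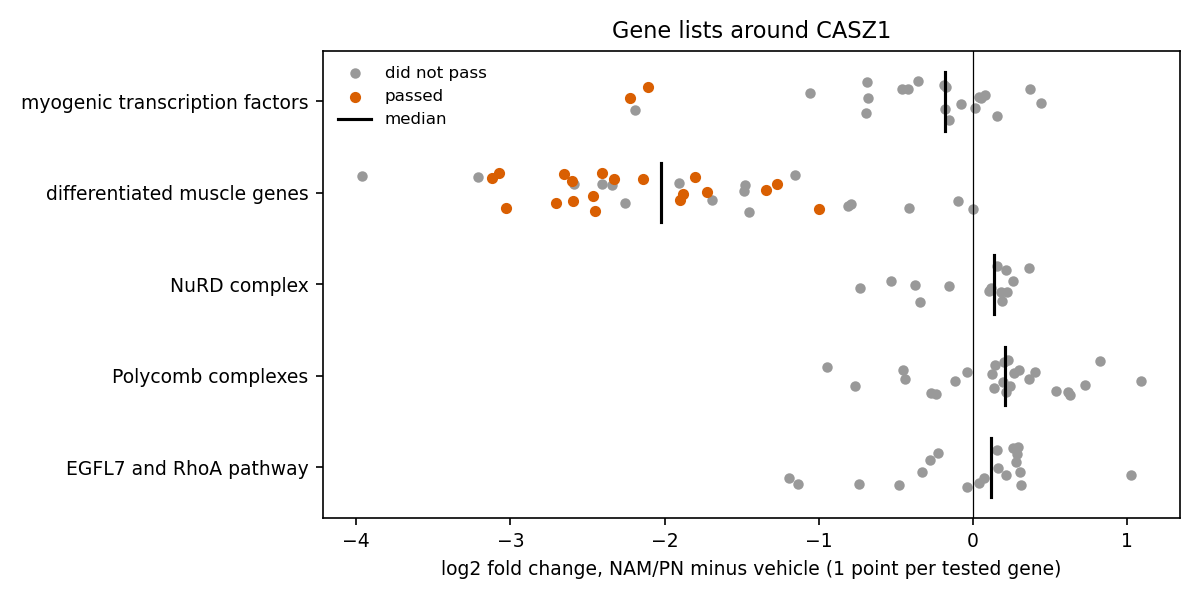
Differences of the gene lists around Casz1. Each point is the log2 fold change of 1 tested gene, NAM/PN against vehicle, orange where the edgeR quasi-likelihood test called it and grey where not, and black bars are medians. Differentiated muscle genes have a median of -2.03 and 19 called members, while the NuRD, Polycomb, and EGFL7 and RhoA lists have 0.

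NuRD is the remodelling complex that CASZ1 binds. Of its 15 genes, 14 were tested, and edgeR's quasi-likelihood test called 0 in either direction and in all 19 alternatives, DESeq2 included, with 1 at an unadjusted p under 0.05. With 0.995% of all genes called lower and 0.282% higher, 0 calls in a list of this size is near the background, which holds for the next lists too. The gene with the smallest p was Chd3, a helicase of the complex, which had 60.9, 64.5, 116 and 110 CPM with vehicle and 43.2, 38.9, 55.4 and 73.3 with NAM/PN. It was lower in 4 of 4 pools, the conditions overlapped, and the log2 fold change was -0.74 (SE 0.27, adjusted p = 0.294 by edgeR's quasi-likelihood test). The median over the 14 genes was 0.14.

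Of 28 Polycomb genes, which encode repressors that mark and compact chromatin, 26 were tested and 0 were called by edgeR's quasi-likelihood test or in any of the 19 alternatives, with 0 at an unadjusted p under 0.05 and a median log2 fold change of 0.20. Over all genes the shares called were 0.995% lower and 0.282% higher. The smallest p belonged to Pcgf6, a subunit of a variant repressor complex. It had 15.9, 13.3, 14.8 and 17.0 CPM with vehicle and 27.9, 23.0, 22.1 and 27.8 with NAM/PN, without overlap, at an adjusted p of 0.553 by edgeR's quasi-likelihood test.

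The EGFL7 and RhoA list holds the vascular pathway of CASZ1. All 20 genes were tested, 0 were called by edgeR's quasi-likelihood test or in the 19 alternatives, and 2 had an unadjusted p under 0.05, where 0.995% of all genes were called lower and 0.282% higher. Egfl7, a secreted protein of endothelium, had 33, 92, 26 and 135 counts with vehicle and 80, 128, 68 and 316 with NAM/PN in pools 1 to 4. It was higher with NAM/PN in 4 of 4 pools, opposite to Casz1, but the conditions overlapped, and the log2 fold change was 1.02 (SE 0.59, adjusted p = 0.687 by the edgeR quasi-likelihood test, adjusted after Benjamini-Hochberg, and 0.399 to 0.906 over alternatives). Among pools, however, Egfl7 had pools 2 and 4 above pools 1 and 3 in both conditions, as did Casz1 and 3.00% of 9212 genes. Its correlation of deviations with Casz1 was 0.760, where 5% of 9211 genes were above 0.678. Whether Casz1 acts on Egfl7 in these cells was not tested. The smallest p of the list was that of Myl9, a regulatory light chain downstream of RhoA, with 24.6, 33.1, 18.2 and 38.2 CPM with vehicle and 5.79, 10.6, 24.2 and 9.34 with NAM/PN. Myl9 was lower in 3 of 4 pools, and its log2 fold change was -1.20 (SE 0.45, adjusted p = 0.322 by edgeR's quasi-likelihood test).

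To see whether the genes around Casz1 differed as it did, all genes within 500 kb on either side on GRCm38 were listed. Of 32, 19 had at least 1 count and 11 were tested, and 0 were called by edgeR's quasi-likelihood test or in any of the 19 alternatives, with 1 at an unadjusted p under 0.05. With 0.995% and 0.282% of all genes called lower and higher, 0 calls among 11 is near the background. Their log2 fold changes ranged from -0.84 to 0.55, with a median of 0.07, all far from the -4.52 of Casz1. The nearest tested gene, Pex14, a peroxisome import protein that starts 5.646 kb beyond the end of Casz1 in coordinates and runs on the reverse strand, had 56.4, 30.1, 16.2 and 49.1 CPM with vehicle and 71.2, 29.4, 38.1 and 21.2 with NAM/PN. The nearest tested gene on the other side was Tardbp, 177.4 kb away, which encodes the RNA binding protein TDP-43, with a log2 fold change of -0.09.

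**Figure D4:**
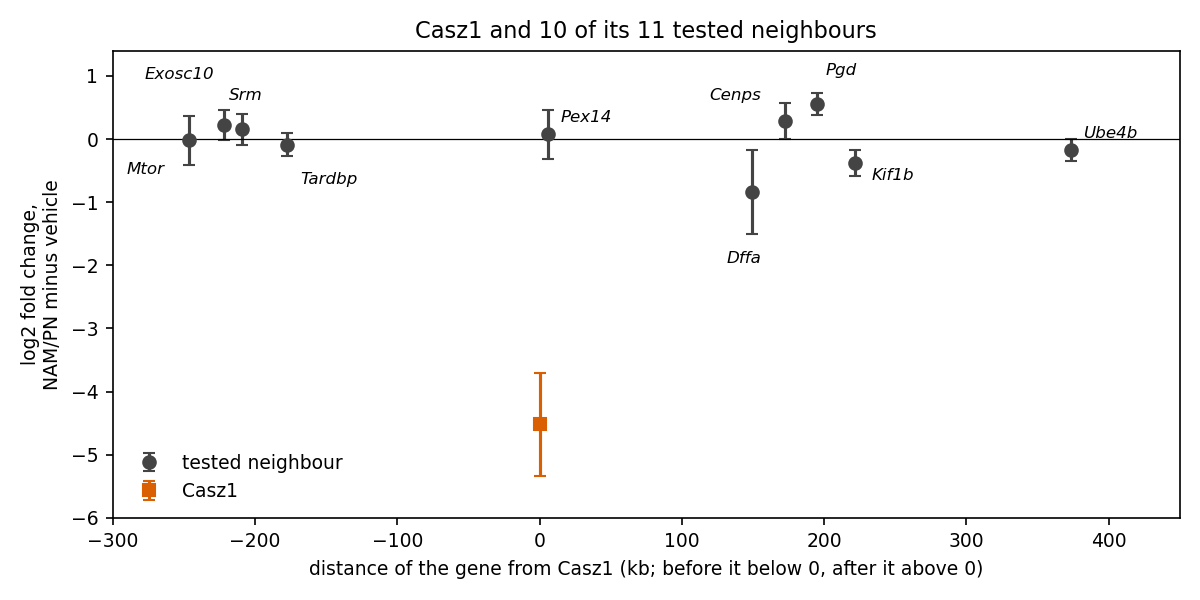
Casz1 and 10 of the 11 tested genes within 500 kb. The horizontal axis is the distance from Casz1 in kb, negative before its start and positive beyond its end, and the vertical axis is the log2 fold change, NAM/PN against vehicle, with its standard error. Casz1 lies at -4.52, and the 10 other genes lie between -0.84 and 0.55.

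Pgd, an enzyme of the pentose phosphate pathway 195.1 kb beyond Casz1, was the neighbour with the smallest p. It had 314, 257, 270 and 257 CPM with vehicle and 361, 362, 351 and 539 with NAM/PN, higher in 4 of 4 pools without overlap, with a log2 fold change of 0.55 (SE 0.17, adjusted p = 0.173 by edgeR's quasi-likelihood test). Dffa, which encodes the inhibitor of an apoptotic nuclease, had the lowest value of the neighbours, -0.84 (SE 0.66, adjusted p = 0.825 by edgeR's quasi-likelihood test), at 11.3 ± 3.11 CPM with vehicle and 6.30 ± 3.21 with NAM/PN. Mtor, the kinase of growth control, was at 20.6 ± 1.88 CPM with vehicle and 20.3 ± 9.34 with NAM/PN. The log2 fold changes of 5 further neighbours were 0.23 for Exosc10, 0.16 for Srm, 0.29 for Cenps, -0.38 for Kif1b and -0.18 for Ube4b. None of the 11 had pools 2 and 4 above pools 1 and 3 in both conditions. With 3.00% of the 9212 genes showing that pattern, 0 of 11 is near the background. Over deviations from the condition means, Ube4b, a ubiquitin ligase, had the highest correlation with Casz1 among the 11 neighbours, 0.850. Over 9211 genes, 5% were above 0.678.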

How the data were processed

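The 8 libraries were made with a QuantSeq 3′ forward kit. The authors deposited raw read counts per gene, without normalization or a filter. Per the methods of the study, reads were demultiplexed with Bcl2FastQ, aligned to GRCm38 with RNASTAR and counted per gene with HTSeq (2.16.2 in the submitters' processing notes). The annotation release, strand setting and treatment of multimapping reads are not given in the sources used here. Counts of 3′ reads do not scale with transcript length.

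The treatment label set each library's group. Counts were filtered with filterByExpr (minimum count 10, minimum total 15), scaled by edgeR's TMM factors and compared with edgeR 4.0.16 (glmQLFit and glmQLFTest, two-sided, Benjamini-Hochberg over 12060 genes, threshold 0.05) in R 4.3.3, after a test on simulated data. The pool number pairs the conditions, since the same mice were split between them, and the pool as a replicate block was an alternative, because the edgeR fit that the methods describe for mouse muscles names none, and none is described for these MuSC libraries. The block gave a Casz1 log2 fold change of -5.05 and 24 called differentiated muscle genes in place of 19, and moved no count of calls by over 1.5 times. Log2 CPM values had a prior count of 2. Replicate libraries differed beyond sampling noise (the lowest chi-square of any pair within a condition, divided by its degrees of freedom, was 22.8). Intervals (95%, exact) and the floor of 3 counts cover counting error only.

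Genes named were Casz1, the 12 highest and 5 lowest in Pearson's r with it among genes with a mean log2 CPM of 3 or more, Myod1, Myog and Egfl7, in each of the 5 function lists up to 6 called members with the largest log2 fold change or, with none called, the one with the smallest p, and all tested neighbours within 500 kb, of which 1 is not reported here by name. Cdh11, Htra3, the antisense genes and the marker genes named singly were chosen after their values were seen, as was the comparison of pools 2 and 4 with pools 1 and 3. Casz1, the lists and the rule were chosen with earlier results of these data known. Positions and names came from GENCODE M21 on GRCm38, which matched 55141 of 55487 identifiers and 12054 of the tested genes, and upstream windows from RefSeq on GRCm38.p6, both Casz1 starts and all 12 like genes being matched. Alternatives were the block, DESeq2 1.42.0, other size factors, no filter, voomWithQualityWeights with duplicateCorrelation (limma 3.58.1), a robust fit, thinned counts, a prior count of 0.5, Spearman's rho, and leaving out each library and pool.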

Additional observations from a re-analysis of the deposited data

Results flagged for a closer look

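Dixon's ratio was computed for 84 groups of 4 libraries, each gene of the naming rule given above in each condition. These include the neighbour not reported by name, but not Cdh11, Htra3, the antisense genes or genes named only as cell type markers. Of the 84 groups, 3 had a library far from the other ones at the 95% critical value, where chance gives 4.2. None was Casz1. Srm, the spermidine synthase gene 209.4 kb before Casz1, had 82.5 CPM in vehicle pool 3 against 215 to 229 CPM in the other vehicle libraries (ratio 0.905). Tnnc2 had 16.1 CPM in NAM/PN pool 4 against 2.59 to 4.32 CPM in the other NAM/PN libraries (ratio 0.872). Pgd had 539 CPM in NAM/PN pool 4 against 351 to 362 CPM (ratio 0.941).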

How the results depend on the processing

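Casz1 was lower with NAM/PN in all 19 alternatives. Its log2 fold change was -5.70 with voomWithQualityWeights and duplicateCorrelation, -5.05 with the pool as a replicate block, and between -5.28 (without NAM/PN pool 2) and -4.14 (without NAM/PN pool 3) when single libraries or pools were left out. On the log2 CPM scale the difference was -4.73 at a prior count of 2 and -5.44 at 0.5. DESeq2 called 214 genes lower and 75 higher, the unfiltered table gave 231 and 135, and voom gave 66 higher. Leaving out libraries or pools gave 37 (without pool 2) to 134 lower and 5 (without pool 2) to 43 higher. Myogenic transcription factors called were 4 without a filter and 1 to 3 with libraries or pools left out, and differentiated muscle genes 9 to 19. NuRD, Polycomb, EGFL7 and RhoA, and neighbouring genes had 0 calls in the 19 alternatives. Of the 12 genes most like Casz1, 4 stayed among the highest 12 by Spearman's rho, and 3 to 10 when a library was left out (3 without NAM/PN pool 1 or 3, 6 without NAM/PN pool 2 or vehicle pool 3). The causes of these differences were not tested. With 2 and 0 counts in NAM/PN pools 1 and 3, depth limits the size of the Casz1 difference there, which depends on the prior count.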
